A study of Mus musculus with 9 samples.

Results

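Peroxisomal oxidation enzymes and peroxins were described in mouse liver as 38 genes. The members were chosen by name, with earlier results of these data known. They are 25 enzymes and membrane proteins of the organelle and 13 peroxins. A member was kept where its row was above 0 in at least 1 liver. All 38 of 38 named genes met this, out of 23183 gene symbols in the tables, and no member was listed at 0 in any liver.

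The study asked how a polymethoxyflavone-rich fraction (PRF) from the leaves of Jinkyool (Citrus sunki), a citrus tree, affects mice made obese with a high-fat diet. Liver mRNA of 9 male C57BL/6J mice of postnatal day 100 was sequenced, 1 library per mouse, with 3 mice in each of 3 groups. The ND group ate a normal diet with 14% fat. The HFD group ate a diet with 60% fat for 10 weeks, and the PRF 50 group ate the same high-fat diet for 10 weeks and was given PRF by mouth at 50 mg per kg of body weight per day in the last 5 weeks. All 3 groups were of 1 sex and 1 strain with no altered gene, and no normal-diet group with PRF was analysed here. Mice are named by the numbers of their labels, which are 6, 7 and 9 in ND, 1, 2 and 3 in HFD, and 3, 9 and 10 in PRF 50.

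The values are log2(FPKM + 1), where FPKM is fragments per kilobase of transcript scaled to the mapped fragments of the library, a level per length. Read totals were not analysed here. The step that 1 read makes among low values gave each library's depth relative to HFD mouse 1, which was 1.07, 1.15 and 1.11 in ND mice 6, 7 and 9, 1.16 and 1.6 in HFD mice 2 and 3, and 0.99, 1.53 and 0.97 in PRF 50 mice 3, 9 and 10. Between 14372 and 14980 genes were above 0 in a library. HFD mouse 2 stood apart in 1 gene, the small nuclear RNA Rnu6, listed at 22.44 there and at 0 in the other 8 livers. Of 12 hepatocyte markers 11 had a row. Albumin (Alb), the defining secreted protein of hepatocytes, was listed at 0 in all 9 livers, so its row gives no level. The other 10 markers were measured, with the apolipoprotein Apoa1 the most abundant at a mean of 9560 FPKM.

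Peroxisomes are single-membrane organelles, abundant in hepatocytes, that shorten very long chain and branched fatty acids, complete bile acid side chains and break down the hydrogen peroxide that their oxidases make. Acyl-CoA enters through membrane transporters, is shortened in a spiral of oxidation, hydration, dehydrogenation and thiolysis, and leaves as shorter acyl-carnitine or acyl-CoA. Peroxins, encoded by Pex genes, insert membrane proteins, import the enzymes, recycle the import receptors and divide the organelle, and in rodent liver many of the enzyme genes are known targets of the nuclear receptor PPAR alpha.

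Most of the members that passed the test were lower in PRF 50 than in HFD. All 38 members were tested in all 3 comparisons, with a member called where limma's p, adjusted over all tested genes, was under 0.05. In PRF 50 against HFD 8 of 38 members fell (Abcd2, Abcd3, Ehhadh, Hsd17b4, Acaa1b, Ech1, Pex16 and Pex11a) and 0 rose, where 2.16% of 10084 tested genes were called lower and 1.43% higher. At an unadjusted p under 0.05, 18 members were lower and 2 higher, beside 1185 lower and 854 higher of the 10084 genes. Most members are well above 1 FPKM. With only genes of at least 10 FPKM tested, limma called 203 of 4139 genes lower in PRF 50 against HFD and 49 higher. HFD against ND called 1 member higher (Pex11a) and 0 lower, where 0.702% of 9978 genes were called higher and 0.631% lower, and at an unadjusted p under 0.05 the counts were 6 members higher and 1 lower, beside 780 higher and 724 lower of the 9978 genes. PRF 50 against ND called 2 members lower (Ehhadh and Acaa1b) and 0 higher, where 0.298% of 10051 genes were called lower and 0.159% higher, and at an unadjusted p under 0.05 the counts were 8 members lower and 0 higher, beside 647 lower and 609 higher of the 10051 genes. Acaa1b, Ehhadh and Pex11a are also among the genes that the study picked on these same livers, so their calls are not independent evidence. Without these 3 genes, PRF 50 against HFD called 4 of 23 enzymes and 1 of 12 peroxins lower. The remaining members were also chosen with earlier results of these data known, so these counts are not independent evidence either.

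The 3 comparisons share mice, since each group enters 2 of them, so their counts are not independent of one another. The groups did not overlap in PRF 50 against HFD for 20 members that were lower and 3 that were higher in every PRF 50 mouse, beside 15.3% and 10.9% of all tested genes. Between HFD and ND 11 members were higher and 1 was lower without overlap, beside 10.7% and 10% of all tested genes. Between PRF 50 and ND 13 members were lower and 0 higher without overlap, beside 11.8% and 8.19%. For 13 members the groups overlapped in all 3 comparisons, and these were Slc25a17, Pxmp2, Acaa1a, Pecr, Crot, Phyh, Hacl1, Pipox, Pex7, Pex2, Pex6, Pex26 and Pex11g. The counts of calls changed when single mice were left out, which also leaves 5 livers in the fit in place of 6. The differences of the called members had the same sign in all these omissions, and their ranges are given with each gene. Between PRF 50 and HFD the 8 called members became 1 without HFD mouse 3 (0 enzymes and 1 peroxin), 2 without HFD mouse 2 or PRF 50 mouse 3 and 3 without PRF 50 mouse 10, while the calls over all genes went from 362 to 15, 31, 40 and 168. Without HFD mouse 1 there were 7 called members, and 215 calls over all genes. HFD against ND called 0 members without ND mouse 6, ND mouse 7, HFD mouse 2 or HFD mouse 3, and 1 without ND mouse 9, which was Abcd2 in place of Pex11a. PRF 50 against ND called 0 members without any of the 3 ND mice or without PRF 50 mouse 3 or 10.

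**Figure D1:**
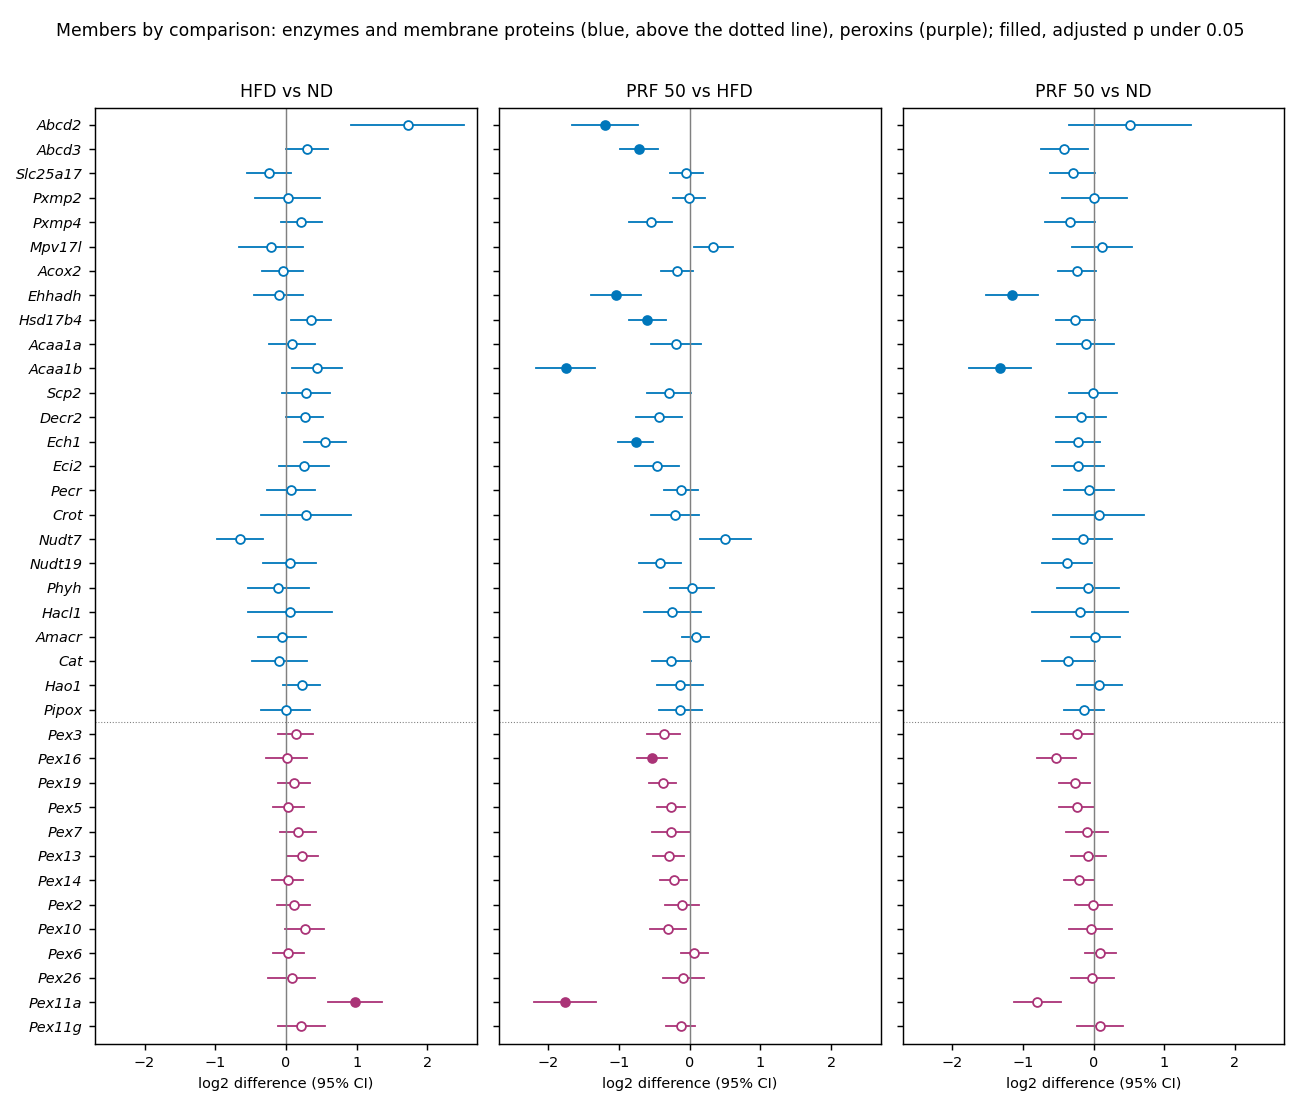
Log2 difference with its 95% confidence interval for each of the 38 members in 3 comparisons, with enzymes and membrane proteins above the dotted line, peroxins below it, and filled points for members with an adjusted p under 0.05. The filled points are 1 in HFD against ND, 8 in PRF 50 against HFD and 2 in PRF 50 against ND, and all but the first lie below 0.

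Of the 6 membrane proteins of the organelle, the 2 called were ABC transporters that carry acyl-CoA inward. Abcd2, a transporter of very long chain and polyunsaturated acyl-CoA, was at 1.6, 1.42 and 2.86 on the log2 scale in ND mice 6, 7 and 9, at 3.61, 3.93 and 3.50 in HFD mice 1, 2 and 3, and at 2.47, 2.86 and 2.11 in PRF 50 mice 3, 9 and 10. All 3 HFD livers were above the other 6, and ND mouse 9 was as high as the highest PRF 50 liver, well above the other ND mice. The difference of PRF 50 from HFD was -1.20 on the log2 scale (SE 0.199, 0.435-fold, adjusted p = 0.0299), and that of HFD from ND, 1.72, did not pass (SE 0.345, adjusted p = 0.0698). The call of PRF 50 against HFD was lost without HFD mouse 1, 2 or 3 (adjusted p = 0.0609, 0.0947 and 0.0784) and without PRF 50 mouse 3 or 10 (0.0833 and 0.0501). It was also lost with all 9 mice in 1 fit (0.0893) and with no minimum level (0.0679), and ranged from 0.0243 to 0.0947 over the alternatives. The difference itself was between -1.39 and -1.02 over the 6 omissions. Without ND mouse 9 the difference of HFD from ND was 2.17 and passed (adjusted p = 0.00225), it also passed with all 9 mice in 1 fit (0.047), and over the alternatives this p ranged from 0.00225 to 0.202. Abcd2 is a low gene, at a mean of 6.63 FPKM over the 9 livers, and a fold change on the log2(FPKM + 1) scale understates the change of low genes.

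Abcd3, the most abundant ABC transporter of the peroxisomal membrane in these livers among the members, stood at 7.53, 7.44 and 7.78 in ND, at 7.81, 7.98 and 7.86 in HFD and at 6.97, 7.27 and 7.27 in PRF 50. The 3 groups did not overlap, with HFD above ND and PRF 50 below both. Only the difference of PRF 50 from HFD passed the test, at -0.71 (SE 0.116, 0.61-fold, adjusted p = 0.0285), while those of HFD from ND (0.30, adjusted p = 0.337) and of PRF 50 from ND (-0.42, adjusted p = 0.292) did not. The call was lost without HFD mouse 2 or 3 (adjusted p = 0.0977 and 0.092) and without PRF 50 mouse 3 or 10 (0.0758 and 0.0507). Quantile normalization (0.0677) and no minimum level (0.0557) lost it too, with 0.021 to 0.0977 over all alternatives, while the difference was between -0.76 and -0.62 over the 6 omissions. Pxmp4, a small membrane protein, was lower in every PRF 50 mouse than in every HFD mouse without passing (-0.55, adjusted p = 0.0705), and it passed without PRF 50 mouse 9 (adjusted p = 0.0458, range 0.0458 to 0.203). Mpv17l, another small membrane protein, was higher there in every mouse, at 0.34 (adjusted p = 0.179). The adenine nucleotide and cofactor carrier Slc25a17 and the channel protein Pxmp2 differed by -0.05 and -0.01 between PRF 50 and HFD, with overlapping groups. Both signs turned under quantile normalization, and that of Pxmp2 also under median-of-ratios scaling.

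Of the 6 core enzymes of the oxidation spiral 3 fell in PRF 50 against HFD, and 2 of these also fell against ND. Acaa1b, a thiolase that performs the final cleavage of the spiral, was at 9.57, 9.22 and 9.36 in ND, at 9.69, 9.81 and 9.94 in HFD and at 7.85, 8.44 and 7.89 in PRF 50. The PRF 50 livers lay below all others by more than the spread within any group, and every HFD liver was above every ND liver. PRF 50 differed from HFD by -1.76 (SE 0.177, 0.296-fold, adjusted p = 0.0116) and from ND by -1.32 (SE 0.191, 0.4-fold, adjusted p = 0.042), while HFD differed from ND by 0.43 (adjusted p = 0.241). In FPKM the group means were 670 in ND, 903 in HFD and 271 in PRF 50. Leaving out HFD mouse 3 took the adjusted p against HFD to 0.0529 at a difference of -1.69. Over all alternatives this p ranged from 0.00149 to 0.0529, and the difference was between -1.95 and -1.65 over the 6 omissions. Against ND the call was lost without ND mouse 6, 7 or 9 (adjusted p = 0.145, 0.126 and 0.0692) and without PRF 50 mouse 3 or 10 (0.137 and 0.069), and also with no minimum level (0.121) and under quantile normalization (0.0573), with 0.0128 to 0.145 over all alternatives and a difference between -1.51 and -1.22 over the omissions.

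Its near copy Acaa1a, a thiolase of the same step, gave other values. It was at 7.02, 6.65 and 6.63 in ND, at 6.92, 6.70 and 6.94 in HFD and at 6.69, 6.91 and 6.37 in PRF 50. The groups overlapped in all 3 comparisons, and PRF 50 differed from HFD by -0.20 with a 95% confidence interval of -0.55 to 0.16. Acaa1b made up 85.5%, 85.7% and 87.0% of the summed FPKM of both thiolases in ND, 87.3%, 89.7% and 89.0% in HFD, and 69.1%, 74.4% and 74.3% in PRF 50, so its share was lower in each PRF 50 liver than in the other 6. Their reads cannot all be told apart, since 22.6% of the 100-base windows of the Acaa1b transcript are also in Acaa1a and 21.6% the other way, and how such reads were divided is not given in the sources used here. Acaa1b also shares 224 exon bases with Dlec1 on the opposite strand, and Acaa1a shares 290 with Myd88, and whether the counting used strand is not given either.

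Ehhadh, the bifunctional enzyme of hydration and dehydrogenation for straight chains, was at 7.17, 6.76 and 6.99 in ND, at 6.69, 6.81 and 7.09 in HFD and at 5.66, 6.08 and 5.71 in PRF 50. ND and HFD overlapped and all 3 PRF 50 livers were below both. PRF 50 differed from HFD by -1.05 (SE 0.151, 0.483-fold, adjusted p = 0.0229) and from ND by -1.16 (SE 0.159, 0.449-fold, adjusted p = 0.0343). The call against HFD was lost without HFD mouse 2 or 3 (adjusted p = 0.0723 and 0.0681) and without PRF 50 mouse 3 or 10 (0.0705 and 0.0522), and ranged from 0.011 to 0.0723, with a difference between -1.18 and -0.94 over the omissions. The call against ND was lost without ND mouse 6, 7 or 9 (0.117, 0.0747 and 0.0618) and without PRF 50 mouse 3 or 10 (0.136 and 0.0623), as well as with no minimum level (0.0966) and under quantile normalization (0.0514), and ranged from 0.0135 to 0.136, with a difference between -1.29 and -1.06 over the omissions.

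Hsd17b4, the bifunctional enzyme for branched chains and bile acid precursors, was at 7.56, 7.40 and 7.36 in ND, at 7.67, 7.76 and 7.93 in HFD and at 7.14, 7.32 and 7.09 in PRF 50. The groups did not overlap, in the order HFD, ND, PRF 50, and the fall from HFD to PRF 50 passed the test at -0.60 (SE 0.111, 0.658-fold, adjusted p = 0.0365), whereas HFD against ND (0.35, adjusted p = 0.247) and PRF 50 against ND (-0.26, adjusted p = 0.439) did not. The call was lost without HFD mouse 2 or 3 (adjusted p = 0.116 and 0.121) and without PRF 50 mouse 3 or 10 (0.11 and 0.083). It was also lost under quantile normalization (0.113) and with no minimum level (0.0654), with 0.0251 to 0.121 over all alternatives and a difference between -0.67 and -0.53 over the omissions. Acox2, the oxidase of branched chains and bile acid precursors, differed from HFD by -0.19 in PRF 50 with overlap (adjusted p = 0.339). Scp2, a lipid carrier whose longer product is a thiolase and the most abundant member at a mean of 1930 FPKM, was higher in every HFD liver than in the ND livers (0.28) and lower in every PRF 50 liver than in the HFD livers (-0.29), and neither passed (adjusted p = 0.426 and 0.283). Of the 100-base windows of Scp2, 32.2% are also in a pseudogene, Scp2-ps2, with no row here.

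**Figure D2:**
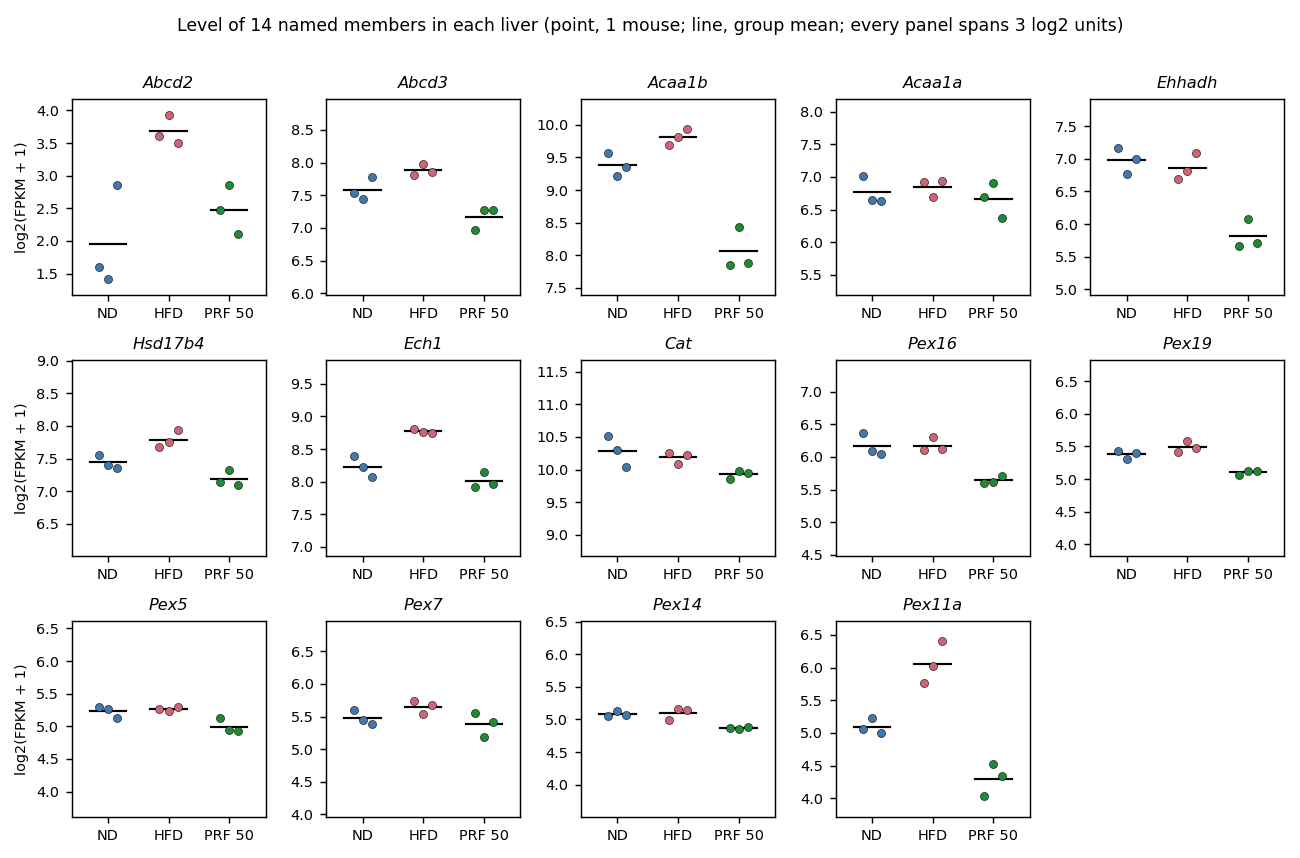
Level in log2(FPKM + 1) of the 8 called members and of Acaa1a, Cat, Pex19, Pex5, Pex7 and Pex14 in each liver by group, with a point per mouse from left to right by its number, a line at the group mean and 3 log2 units in every panel. Acaa1b, Ehhadh and Pex11a have all 3 PRF 50 points below the other 6, while the points of Acaa1a and Pex7 overlap between the groups.

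Promoter sequence is shown for the thiolase pair, of which 1 gene was called, for the called genes Ehhadh and Pex11a, and for Cat, where the motif searched was found. RefSeq promoters (GRCm38.p6, from 250 bases before a transcript start to 50 after it) were at hand for 31 of the 38 members. They were searched on both strands for DR1, the direct repeat that PPAR alpha with its partner RXR is known to bind, as AGGTCA, any 1 base and AGGTCA again, with at most 2 of the 12 letters different. A match was in 2 of 31 members (6.45%), both enzymes, Acox2 and Cat, against 1190 of 27025 genes (4.4%), or 1268 of all 32851 promoters (3.86%). None was in the 6 called members that had a promoter, or in the 11 peroxins. A match is only a likeness of letters, and no match says only that these letters are not in this window. The capitals mark the match in Cat, 10 of 12 letters, and elsewhere the window closest to DR1 on either strand, a marking chosen after the search. That window holds 8 of 12 letters in Acaa1b and Ehhadh and 7 in Acaa1a and Pex11a. Stretches are upstream of a RefSeq transcript start, outside annotated exons, 5′ to 3′ on the gene's strand. That of Acaa1a lies inside the annotated gene, which begins at 119339676, while the other 4 lie before the gene. They are from chr9:119157094-119157343 (minus) for Acaa1b, chr9:119341160-119341293 (plus) for Acaa1a, chr16:21787835-21788084 (minus) for Ehhadh, chr7:79743184-79743381 (minus) for Pex11a and chr2:103485330-103485372 (minus) for Cat.
Acaa1b: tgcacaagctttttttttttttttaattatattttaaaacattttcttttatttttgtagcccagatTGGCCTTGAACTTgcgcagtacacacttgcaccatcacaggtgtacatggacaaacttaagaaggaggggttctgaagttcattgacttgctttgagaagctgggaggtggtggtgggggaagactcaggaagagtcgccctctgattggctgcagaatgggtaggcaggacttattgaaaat
Acaa1a: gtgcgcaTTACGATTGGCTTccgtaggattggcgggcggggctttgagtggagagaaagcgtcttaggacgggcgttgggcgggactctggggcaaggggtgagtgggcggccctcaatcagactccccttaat
Ehhadh: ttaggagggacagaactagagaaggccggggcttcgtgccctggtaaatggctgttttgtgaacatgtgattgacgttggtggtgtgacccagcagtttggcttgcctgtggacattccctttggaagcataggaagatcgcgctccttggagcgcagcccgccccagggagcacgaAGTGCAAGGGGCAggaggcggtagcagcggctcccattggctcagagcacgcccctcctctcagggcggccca
Pex11a: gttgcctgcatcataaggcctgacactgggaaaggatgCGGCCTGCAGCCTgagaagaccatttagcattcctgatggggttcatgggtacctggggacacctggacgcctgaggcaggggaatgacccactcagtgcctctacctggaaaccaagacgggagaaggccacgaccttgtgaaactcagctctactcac
Cat: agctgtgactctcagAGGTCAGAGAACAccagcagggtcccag

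The 4 auxiliary enzymes prepare unsaturated acyl-CoA for the spiral or reduce its double bonds. Ech1, a dienoyl-CoA isomerase, was at 8.39, 8.23 and 8.07 in ND, at 8.81, 8.76 and 8.75 in HFD and at 7.92, 8.15 and 7.96 in PRF 50. The HFD livers lay close together and above all ND and PRF 50 livers, which overlapped. The fall from HFD to PRF 50 was -0.77 (SE 0.104, 0.588-fold, adjusted p = 0.0186), and HFD against ND, 0.55 (SE 0.129), did not pass (adjusted p = 0.107), except under quantile normalization (adjusted p = 0.0342, range 0.0342 to 0.331). The call of PRF 50 against HFD was lost without HFD mouse 2 or 3 (adjusted p = 0.0756 and 0.0681) and without PRF 50 mouse 3 (0.0684), at differences of -0.77, -0.78 and -0.72. Over all alternatives this p ranged from 0.0133 to 0.0756, and over the 6 omissions the difference was between -0.84 and -0.72. The dienoyl-CoA reductase Decr2 and the isomerase Eci2 were lower in every PRF 50 liver than in the HFD livers without passing, at -0.44 (adjusted p = 0.138) and -0.46 (adjusted p = 0.108). Pecr, the trans-enoyl-CoA reductase, overlapped in all comparisons. All 4 had their mean lower in PRF 50 than in HFD, with a median of -0.45, and the sign of Pecr turned under quantile normalization.

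Nudt7, Nudt19 and Crot handle carnitine esters and CoA. Nudt7, a hydrolase of CoA and its esters, was lower in every HFD liver than in the ND livers (-0.66, SE 0.141) and higher in every PRF 50 liver than in the HFD livers (0.50, SE 0.152), and neither difference passed (adjusted p = 0.083 and 0.122). Its group means were 638 FPKM in ND, 402 in HFD and 577 in PRF 50. Nudt19, another CoA hydrolase, was lower in every PRF 50 liver than in the HFD livers, at -0.42 (adjusted p = 0.125), although 38.2% of its 100-base windows also lie in B230322F03Rik, a gene on the opposite strand with no row here. Crot, which makes the carnitine esters that leave the organelle, varied among ND mice with an SD of 0.59 and overlapped in all comparisons.

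The members of alpha-oxidation and of branched chain entry, the hydroxylase Phyh, the lyase Hacl1 and the racemase Amacr, gave 0 calls in any comparison, with differences between -0.25 and 0.08 in PRF 50 against HFD, where the sign of Phyh turned under quantile normalization. At an unadjusted p under 0.05 limma also called 0 of these 3. Of the 100-base windows of Hacl1, 52.7% also lie in Gm49387, a gene on the same strand that shares 1540 exon bases and has no row here. Cat, the catalase that breaks down hydrogen peroxide, was at 10.51, 10.30 and 10.04 in ND, at 10.26, 10.08 and 10.23 in HFD and at 9.85, 9.98 and 9.95 in PRF 50. All 3 PRF 50 livers were below the other 6, but neither the difference from HFD (-0.26, SE 0.119, adjusted p = 0.282) nor that from ND (-0.36, SE 0.162, adjusted p = 0.42) passed. The sign of Cat in HFD against ND (-0.10) turned under quantile normalization and without ND mouse 6. The oxidases Hao1, of glycolate, and Pipox, of pipecolate and sarcosine, differed from HFD by -0.14 and -0.13 in PRF 50, with overlap, and both signs turned under quantile normalization.

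Among the 13 peroxins, Pex11a and Pex16 were called. Pex11a, which elongates and divides the organelle and is known as its inducible division peroxin, was at 5.06, 5.22 and 5 in ND, at 5.76, 6.02 and 6.40 in HFD and at 4.03, 4.52 and 4.34 in PRF 50. The groups were fully apart, with HFD highest and PRF 50 lowest. It rose in HFD against ND by 0.97 (SE 0.165, 1.96-fold, adjusted p = 0.0363) and fell in PRF 50 against HFD by 1.77 (SE 0.186, 0.294-fold, adjusted p = 0.0133), while PRF 50 against ND was -0.80 (SE 0.144, adjusted p = 0.0706) and passed only with genes of at least 10 FPKM tested (adjusted p = 0.0491, range 0.0491 to 0.233). The fall from HFD to PRF 50 was called with each of the 6 mice left out in turn and under all 7 other alternatives, with an adjusted p of at most 0.0494 and a difference between -1.91 and -1.6 over the omissions. The rise in HFD was lost without ND mouse 6, 7 or 9 (adjusted p = 0.0924, 0.107 and 0.0893) and without HFD mouse 2 or 3 (0.121 and 0.0974), and with no minimum level (0.1) and under quantile normalization (0.0534), with 0.0219 to 0.121 over all alternatives, and the difference was between 0.80 and 1.12 over the omissions. Its relative Pex11g, also of the division family, overlapped in all comparisons (-0.13 in PRF 50 against HFD, adjusted p = 0.459), although 46.9% of its 100-base windows also lie in Gm44775, a gene on the opposite strand.

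The 3 peroxins that insert membrane proteins were lower in every PRF 50 liver than in all HFD and all ND livers. Pex16, which receives membrane proteins at the endoplasmic reticulum and the organelle, was at 6.37, 6.09 and 6.04 in ND, at 6.10, 6.30 and 6.12 in HFD and at 5.60, 5.62 and 5.70 in PRF 50. ND and HFD overlapped, and the PRF 50 livers lay below both by more than their own spread. PRF 50 differed from HFD by -0.53 (SE 0.0895, 0.691-fold, adjusted p = 0.0305) and from ND by -0.53 (SE 0.12, adjusted p = 0.122). The call was lost without HFD mouse 2 or 3 (adjusted p = 0.1 and 0.092) and without PRF 50 mouse 3, 9 or 10 (0.0877, 0.0667 and 0.0551), and under quantile normalization (0.0806), with 0.0216 to 0.1 over all alternatives and a difference between -0.57 and -0.47 over the 6 omissions. Its exons share 127 bases with Large2 on the opposite strand. Pex19, the cytosolic chaperone of membrane proteins, was at 5.43, 5.31 and 5.40 in ND, at 5.42, 5.58 and 5.47 in HFD and at 5.07, 5.12 and 5.13 in PRF 50. The step was small, clear of the spread between mice and just short of the threshold against HFD, at -0.38 (SE 0.0817, adjusted p = 0.0532). With all 9 mice in 1 fit, or with only genes of at least 10 FPKM tested, Pex19 was called (adjusted p = 0.0406 and 0.0365, range 0.0365 to 0.175). Pex3, the membrane anchor of Pex19, differed from HFD by -0.37 (SE 0.1, adjusted p = 0.0987), and 7.2% of its windows also lie in Adat2 on the opposite strand.

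The import receptors and their docking partners differed by less. Pex5, which carries enzymes with the C-terminal signal, was at 5.30, 5.26 and 5.13 in ND, at 5.26, 5.23 and 5.29 in HFD and at 5.12, 4.94 and 4.93 in PRF 50. Pex7, the receptor of the N-terminal signal that the thiolases Acaa1a and Acaa1b carry, was at 5.60, 5.44 and 5.39 in ND, at 5.74, 5.54 and 5.67 in HFD and at 5.55, 5.19 and 5.41 in PRF 50. Pex5 was lower in every PRF 50 liver, and Pex7 overlapped in each comparison. Pex14, the docking protein at the membrane, was at 5.05, 5.13 and 5.07 in ND, at 4.99, 5.16 and 5.15 in HFD and at 4.87, 4.86 and 4.89 in PRF 50. The PRF 50 livers had nearly equal values of Pex14, all below the other 6, although 18.1% of its 100-base windows also lie in Gm17029, a gene on the opposite strand with no row here. Against HFD the differences were -0.27 for Pex5 (adjusted p = 0.141), -0.26 for Pex7 (adjusted p = 0.256) and -0.23 for Pex14 (adjusted p = 0.183), and none passed. Pex13, the other docking protein, and Pex10, a RING ubiquitin ligase of receptor recycling, were higher in every HFD liver than in the ND livers and lower in every PRF 50 liver than in the HFD livers, at -0.30 for both, without passing (adjusted p = 0.14 and 0.177). Pex2, the other RING member, and the export proteins Pex6, an ATPase, and Pex26, its anchor, overlapped in all comparisons.

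Enzymes and peroxins were set side by side by their counts and medians, and no test was run between the classes. Between HFD and ND the median log2 difference was 0.066 over 25 enzymes and 0.115 over 13 peroxins, beside -0.009 over all tested genes. The mean was higher in HFD for 13 of 13 peroxins and 16 of 25 enzymes, beside 4820 of all 9978 tested genes. Some of these differences were near 0, at 0.008 for Pex16, 0.021 for Pex14 and 0.032 for Pex5. Quantile normalization turned the signs of Pex16, Phyh and Cat and median-of-ratios scaling that of Pipox. Between PRF 50 and HFD the medians were -0.247 and -0.268, beside -0.015. The mean was lower in PRF 50 for 12 of 13 peroxins, all but Pex6, and 21 of 25 enzymes, beside 5344 of all 10084 tested genes. Of these enzymes, Slc25a17, Pxmp2, Pecr, Hao1 and Pipox turned under quantile normalization. Between PRF 50 and ND the medians were -0.177 and -0.094, beside -0.031. The median over all tested genes depended on the minimum level. At a minimum of 10 FPKM it was -0.006 in HFD against ND, -0.072 in PRF 50 against HFD and -0.086 in PRF 50 against ND. PRF 50 against HFD ran from -1.76 to 0.50 over the enzymes and from -1.77 to 0.06 over the peroxins, of which the lowest after Pex11a was Pex16 at -0.53. Under quantile normalization the medians of enzymes and peroxins were 0.119 and 0.129 in HFD against ND, -0.140 and -0.192 in PRF 50 against HFD, and -0.045 and -0.083 in PRF 50 against ND.

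**Figure D3:**
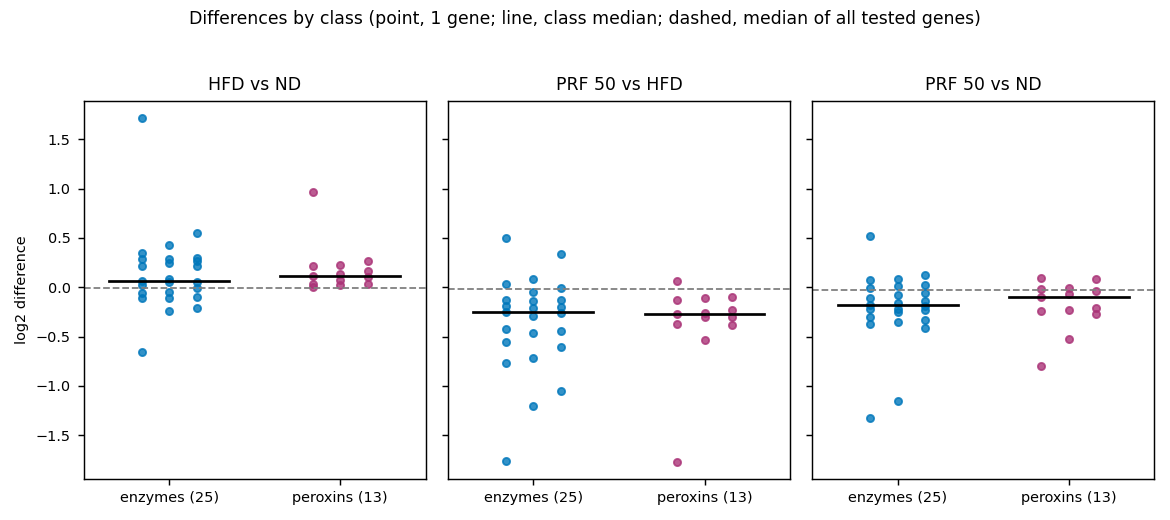
Log2 difference of each member by class in 3 comparisons, with a point per gene, a solid line at the class median and a dashed line at the median of all tested genes. In PRF 50 against HFD both class medians, -0.247 and -0.268, lie below the dashed line at -0.015, and the lowest points are Acaa1b at -1.76 and Pex11a at -1.77.

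The summed level of each class was lowest in PRF 50, with the genes that the study picked included. The 13 peroxins together held 408, 375 and 373 FPKM in ND, 420, 447 and 463 in HFD and 332, 321 and 334 in PRF 50. The PRF 50 sums were below all others and the HFD sums above all others. The place of the HFD sums depended on Pex11a, a gene the study picked. With Pex11a taken out, the sum of HFD mouse 1 would lie below that of ND mouse 6. The PRF 50 sums would still lie below all others. The 25 enzymes together held 8866, 7904 and 7465 FPKM in ND, 8666, 8430 and 8770 in HFD and 6539, 6950 and 7379 in PRF 50. Every PRF 50 sum was below the other 6, and ND and HFD overlapped. The separation from ND depended on Acaa1b, a gene the study picked. With Acaa1b taken out, the sum of PRF 50 mouse 10 would lie above that of ND mouse 9. The PRF 50 sums would still lie below all HFD sums. The most abundant enzymes, Scp2, Phyh and Cat at 1930, 1240 and 1130 FPKM, were not called.

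Other genes of the organelle and of its known regulator were counted from lists. Of 40 other peroxisomal proteins 36 were tested. Against HFD 8 fell and 0 rose in PRF 50, with a median of -0.263, and against ND 4 rose in HFD (among them Acot4, Crat and Ddo), with a median of 0.173. Over all tested genes 2.16% were called lower and 1.43% higher in PRF 50 against HFD, with a median of -0.015. In HFD against ND 0.702% of all tested genes were called higher, with a median of -0.009. The 8 became 3 with no minimum level, 7 of 28 tested at a minimum of 10 FPKM, 5 under median-of-ratios scaling and 6 with no variance trend, while quantile normalization called 3 lower and 1 higher. The 4 became 2 with no minimum level or a minimum of 10 FPKM. PRF 50 against ND had 0 called by limma, with 3 lower at an unadjusted p under 0.05, and 1 (Acot4) was called lower with all 9 mice in 1 fit (adjusted p = 0.0368, range 0.0368 to 0.212). Acot4, a peroxisomal acyl-CoA thioesterase, rose by 1.38 in HFD against ND (adjusted p = 0.00633) and fell by 2.23 in PRF 50 against HFD (adjusted p = 0.00243). Crat, the carnitine acetyltransferase, rose by 1.17 (adjusted p = 0.00731) and fell by 1.52 (adjusted p = 0.0229). In PRF 50 against HFD 3 of the list were called without HFD mouse 1 and 1 without HFD mouse 2, HFD mouse 3, PRF 50 mouse 3 or PRF 50 mouse 10, while Acot4 was called in all 6 omissions. In HFD against ND 2 were called without ND mouse 7, HFD mouse 2 or HFD mouse 3. Tmem135, Dhrs4 and Acad11 also fell in PRF 50 against HFD, with log2 differences of -0.59, -0.46 and -0.54 (adjusted p = 0.0249, 0.0321 and 0.0414). Dhrs4 lost its call in every omission (range 0.0254 to 0.113). Tmem135 and Acad11 lost theirs in every omission but that of PRF 50 mouse 9 (ranges 0.0133 to 0.0932 and 0.0252 to 0.142). The study also picked 2 of the 40, Acot4 and Crat, on these livers, which is not independent evidence. The most abundant of the list was the urate oxidase Uox, at 1370 FPKM. Of 9 genes of shared fission machinery and pexophagy, led by Sqstm1 at 148 FPKM, 8 were tested and 0 were called in any comparison, also at an unadjusted p under 0.05.

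Targets of PPAR alpha outside the peroxisome were counted in the same way, and no test was run between them and the members. Of 25 such genes 24 were tested in PRF 50 against HFD, where 15 fell and 0 rose with a median of -0.858. Over all tested genes 2.16% were called lower and 1.43% higher there, with a median of -0.015. HFD against ND had 5 that rose (Vnn1, Cyp4a14, Acot2, Aldh3a2 and Cpt1a), with a median of 0.627, and PRF 50 against ND had 1 that fell, the fatty acid transporter Cd36, at -0.78 (adjusted p = 0.0229). Of all tested genes 0.702% were called higher in HFD against ND, with a median of -0.009, and 0.298% lower in PRF 50 against ND. Cyp4a14, a fatty acid omega-hydroxylase of the endoplasmic reticulum, was at 6.73, 6.50 and 5.97 in ND, at 8.05, 8.17 and 8.28 in HFD and at 1.62, 4.41 and 2.38 in PRF 50. The groups were far apart, and it fell by 5.36 in PRF 50 against HFD (SE 0.62, adjusted p = 0.0147). The smallest p values there belonged to Acot2, Acot1, Vnn1, Cyp4a14, Aldh3a2 and Acadm. The study picked 8 of the 25 on these livers, so the direction is not independent evidence. With no minimum level 7 were called in place of the 15, 2 in place of the 5 and 0 in place of the 1, and quantile normalization called 9 in place of the 15. PRF 50 against ND had 3 called lower with all 9 mice in 1 fit and 2 with a minimum of 10 FPKM or without PRF 50 mouse 9. The 15 became 1 without HFD mouse 2 or 3, 3 without PRF 50 mouse 3 and 7 without PRF 50 mouse 10, and the 5 became 3 without ND mouse 6 and 2 without ND mouse 7, ND mouse 9, HFD mouse 2 or HFD mouse 3. Of the 5, Cpt1a lost its call in every omission (adjusted p of 0.0366 to 0.22 over all alternatives). Aldh3a2 lost its call in every omission but that of HFD mouse 1 (0.036 to 0.154). Acot2 lost its call without ND mouse 7 or 9 or HFD mouse 2 or 3 (0.0231 to 0.103). In HFD against ND, Vnn1 and Cyp4a14 were called in every omission, but Cyp4a14 lost this call with all 9 mice in 1 fit (0.164, range 0.00503 to 0.164). In PRF 50 against HFD, Cyp4a14 lost its call without HFD mouse 2 or 3 (adjusted p of 0.000444 to 0.0567 over all alternatives). Cd36 lost its call in PRF 50 against ND with any mouse but ND mouse 9 left out, with all 9 mice in 1 fit and with no minimum level (0.011 to 0.279). The most abundant, Fabp1, had a mean of 13900 FPKM.

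Of 9 receptors and coactivators 1 was called, Pparg, which fell in PRF 50 against HFD by 1.25 (adjusted p = 0.0229) and against ND by 1.12 (adjusted p = 0.0416). Of all tested genes 2.16% were called lower in PRF 50 against HFD and 0.298% in PRF 50 against ND. The call of Pparg against HFD was lost without HFD mouse 2, HFD mouse 3 or PRF 50 mouse 3, and with no minimum level (adjusted p of 0.00511 to 0.0804 over all alternatives) and that against ND with any mouse but PRF 50 mouse 10 left out and with no minimum level (0.0197 to 0.157). Ppara itself, which encodes PPAR alpha, was higher in every HFD liver than in the ND livers, by 0.59 (SE 0.11, adjusted p = 0.0521), and lower in every PRF 50 liver than in the HFD livers, at -0.52 (SE 0.131, adjusted p = 0.083). Neither passed with the settings used throughout. The first passed under median-of-ratios scaling and with a minimum of 10 FPKM (0.0478 and 0.0408, range 0.0408 to 0.228), and the other passed without PRF 50 mouse 9 (0.0397, range 0.0397 to 0.217). The most abundant of this list was Rxra, at 89.8 FPKM.

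Markers of macrophages moved with the PRF 50 group. All 10 Kupffer cell and macrophage markers were higher in every PRF 50 liver than in every HFD and every ND liver. Among all tested genes 10.9% were higher without overlap in PRF 50 against HFD and 8.19% in PRF 50 against ND. Against HFD 7 of the markers rose in PRF 50 (median 1.39), where 1.43% of all tested genes were called higher (median -0.015). Among them were Timd4, Vsig4, Cd68, Csf1r, Adgre1 and Cd5l at 0.99 to 1.6, and 7 of the 10 markers are genes the study picked on these livers. Without HFD mouse 3 or PRF 50 mouse 3 limma called 0 of the 10 markers, without HFD mouse 2 it called 1 and without PRF 50 mouse 10 it called 2. With no minimum level it made 2 calls, and with all 9 mice in 1 fit or a minimum of 10 FPKM (7 tested) it made 5. Against ND limma called 0 in PRF 50 (median 1.41, 10 of 10 at an unadjusted p under 0.05), but 3 were called higher with all 9 mice in 1 fit, 2 without ND mouse 9 and 1 without PRF 50 mouse 9, and in HFD against ND 0 were called by limma, also unadjusted (median 0.07). Their summed level was 75, 136 and 187 FPKM in ND, 94, 159 and 163 in HFD and 539, 285 and 360 in PRF 50. ND and HFD overlapped, and PRF 50 mouse 3 was the highest. The most abundant was Cd5l, at 54.1 FPKM, and no marker of the list was at 0 in all livers. In bulk liver, fewer hepatocytes and less RNA per hepatocyte cannot be told apart, and the part of these cells in the lower member values of PRF 50 was not tested. The 10 measured hepatocyte markers gave 0 calls by limma in any comparison. Of the alternatives, 1 marker (Cps1) was called lower in HFD against ND without HFD mouse 1 (adjusted p = 0.0462, range 0.0462 to 0.507), and 1 (Ttr) lower in PRF 50 against HFD with a minimum of 10 FPKM, under quantile normalization and with no variance trend (0.0325, 0.0387 and 0.028, range 0.028 to 0.359). At an unadjusted p under 0.05, 1 was higher and 1 lower in PRF 50 against HFD (median 0.219), 0 in PRF 50 against ND, and 3 were lower in HFD against ND (median -0.177).

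**Figure D4:**
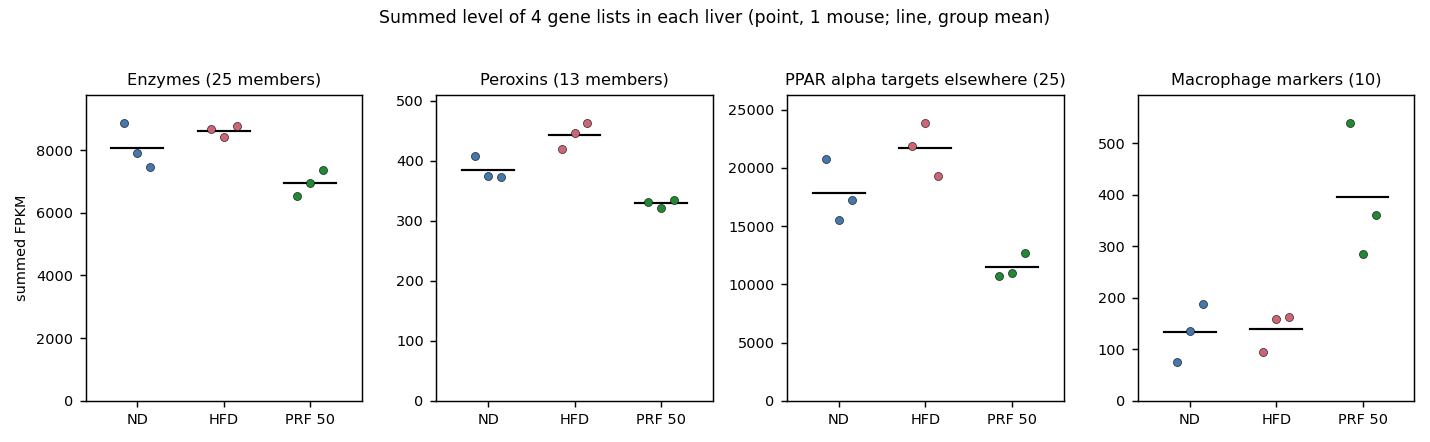
Summed FPKM of the 25 enzymes, the 13 peroxins, 25 targets of PPAR alpha outside the peroxisome and 10 macrophage markers in each liver, with a point per mouse from left to right by its number, a line at the group mean and each axis from 0. The PRF 50 livers are lowest in the first 3 panels and highest in the last, with macrophage sums of 285 to 539 against 75 to 187 in the other livers.

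Other cell types gave 0 calls by limma in any comparison with the settings used throughout. Of the alternatives, HFD against ND called the stellate cell marker Col1a1 higher with all 9 mice in 1 fit and without HFD mouse 1 (adjusted p = 0.0385 and 0.0462, range 0.0385 to 0.262) and Col3a1 higher without ND mouse 9 (0.0374, range to 0.3). It called the neutrophil marker S100a9 lower without ND mouse 6 (0.0481, range to 0.631) and the adipocyte marker Cfd higher without HFD mouse 1 (0.0219, range to 0.767). In PRF 50 against HFD, Cfd was called lower without HFD mouse 1 (0.0152, range to 0.335) and S100a9 higher without PRF 50 mouse 10 (0.0446, range to 0.374). The summed levels overlapped for endothelial markers (led by Clec4g) and stellate cell markers (led by Dcn), with group means of 70.2 and 81.4 FPKM in ND, 48.5 and 94.3 in HFD and 66.6 and 102 in PRF 50. At an unadjusted p under 0.05, 1 endothelial marker was lower in HFD against ND and 1 higher in PRF 50 against HFD, while 2 stellate cell markers were higher in HFD against ND and 2 lower in PRF 50 against HFD. Cholangiocyte markers, led by Spp1, summed to 27.2, 30.0 and 36.5 FPKM in the mean of ND, HFD and PRF 50, and erythroid markers, led by Hba-a1, to 169, 149 and 170. Lymphocyte markers, led by Nkg7, summed to at most 5.54 FPKM in any liver and none was tested. Neutrophil markers, led by S100a8, summed to 55.3 and 17.5 FPKM in PRF 50 mice 3 and 9 and to at most 9.29 in the other 7. Adipocyte markers, led by Cfd, summed to 6.56 and 13.5 FPKM in HFD mice 2 and 3 and to at most 1.6 elsewhere, while the rows of Lep and Plin1, at 0 in all 9 livers, give no level, like that of Alb. The 8 genes of stress and RNA quality, led by Junb, summed to 54.2, 33.8 and 33.5 FPKM in the mean of the groups and gave 0 calls by limma, with 1, 3 and 2 of 5 tested lower at an unadjusted p under 0.05 in HFD against ND, PRF 50 against HFD and PRF 50 against ND. Without ND mouse 9, Junb was called lower in HFD against ND (adjusted p = 0.0278, range to 0.619) and Dusp1 lower in PRF 50 against ND (0.0216, range to 0.308), and without PRF 50 mouse 10, Junb was called higher in PRF 50 against HFD (0.0351, range to 0.686). At the unadjusted p, 1 cholangiocyte marker was higher and 1 erythroid marker lower in PRF 50 against ND, and 1 neutrophil marker was higher and 1 adipocyte marker lower in PRF 50 against HFD. The part of these cells and signs in the member values was not tested.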

How the data were processed

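The authors sequenced poly(A) RNA with a directional library kit as paired 100-base reads, mapped them with TopHat (mm10 per the submitters' processing notes; version and annotation not given in the sources used here), estimated FPKM with Cufflinks and scaled the samples geometrically. The deposited values are log2(FPKM + 1), per the labels and methods a log2 scale; the constant of 1 was read from the values, since low values then fall on whole steps of 1 read. In the 36 pairs of libraries, 0 genes above 0 had equal values at all deposited digits. Here limma 3.58.1 in R 4.3.3 (lmFit, eBayes with a variance trend) was fitted to the 6 mice of each comparison, keeping genes whose mean over those mice reached 1 FPKM, with Benjamini-Hochberg adjustment over all of them and a threshold of 0.05. Fold changes are on the log2(FPKM + 1) scale. The fit was tested on simulated data. Values were shown in every mouse for called members, for Acaa1a, Cat, Pex5, Pex7, Pex14 and Pex19, and of each other list the called genes, up to 6 per comparison, and the most abundant were named, except for called genes of 1 list that are not reported here. Values by mouse of Cyp4a14, Ppara's differences and genes called only under an alternative were added after they were seen. Members and lists were chosen with earlier results of these data known. Alternatives were another pseudocount, other minimum levels, 2 other scalings, no trend, 1 fit over 9 mice and leaving out each mouse. Windows, exon overlaps and positions came from GENCODE M21 (GRCm38, the assembly of mm10), and figures from matplotlib 3.10.9 in Python 3.11.15. Protein sequences and the targeting signals they carry were not analysed here, nor were Tf, Hbb-bt and Ly6g. Depth ran from 0.97 to 1.6 times that of HFD mouse 1, and it limits low genes most.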

Additional observations from a re-analysis of the deposited data

How the results depend on the processing

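Scaling by median-of-ratios, a pseudocount of 0.1 FPKM and no variance trend changed no count of called members by over 1.5 times. With all 9 mice in 1 fit, and under quantile normalization, 1 enzyme was called in HFD against ND in place of 0. Without a minimum level, and under quantile normalization, 0 peroxins were called there in place of 1, and 0 enzymes in PRF 50 against ND in place of 2. Without a minimum level 3 enzymes were called in PRF 50 against HFD in place of 6, with more genes tested and 126 in place of 362 called in all. Quantile normalization called 1 peroxin there in place of 2 and moved the medians to -0.140 for enzymes and -0.192 for peroxins. A minimum of 10 FPKM called 1 peroxin in PRF 50 against ND in place of 0, with a median of -0.205 in place of -0.094 over the fewer peroxins kept. The median over all tested genes there was -0.086 in place of -0.031. Over all genes, no minimum level called 37 in place of 133 in HFD against ND and 11 in place of 46 in PRF 50 against ND, and the fit of all 9 mice called 107 there. Leaving out a mouse gave 35 to 140, 15 to 242 and 4 to 71 calls over all genes in the 3 comparisons. For the members this, which also lowers the number of samples, gave 0 to 1 enzymes and 0 to 1 peroxins in HFD against ND, 0 to 7 and 1 to 2 in PRF 50 against HFD, and 0 to 2 and 0 in PRF 50 against ND. Of the single members, Cat in HFD against ND turned to 0.106 under quantile normalization and ranged from -0.216 to 0.017 without a mouse. Acaa1a in PRF 50 against ND turned to 0.046 and ranged from -0.239 to 0.031, and Pex7 there turned to 0.011 and ranged from -0.178 to 0.001. In HFD against ND, Pex5 ranged from -0.017 to 0.067 and Pex14 from -0.011 to 0.075 without a mouse. None of these was called, and where the alternative's construction does not show it, the cause was not tested. No paired analysis was possible because each library came from a different mouse, which belonged to 1 group only.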
